A study of Homo sapiens with 8 samples.

Results

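The E2F transcription factors and their pocket protein partners were followed at the mRNA level in 2 human acute myeloid leukaemia lines exposed to dG. The 10 genes, E2F1 to E2F8, RB1 and RBL1, were taken by exact gene symbol from a count table of 57992 genes, and each symbol matched 1 row. The groups were KG1A in 10 mM dG, KG1A in PBS, U937 in 10 mM dG and U937 in PBS, with 2 libraries each. KG1A is an established line of immature, CD34-bearing leukaemic cells, and U937 is an established line of monoblast character. All groups grew in RPMI 1640 medium with dialyzed serum, the compound is named only dG in the labels, and the length of treatment is not given in the sources used here. The series asked whether upsetting deoxynucleotide pools lets leukaemic cells mature. Nothing in the labels states that both libraries of a group came from separate cultures. The p-values therefore speak for the variation among these libraries alone, which may be technical.

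E2F proteins bind the promoters of genes needed for DNA replication and cell division. E2F1, E2F2 and E2F3 are classed as activators, and the retinoblastoma protein RB1 binds them and silences them until G1 cyclin kinases phosphorylate it. E2F4 and E2F5 recruit the related pocket proteins RBL1 (p107) and RBL2 (p130) to repress target genes in resting cells, E2F6 represses through Polycomb proteins without a pocket protein, and E2F7 and E2F8 are atypical repressors that bind DNA without a DP partner. Several of these genes, among them E2F1, E2F2, E2F7, E2F8 and RBL1, are known as E2F targets themselves.

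Library totals ran from 21053724 to 31135338 counts, and 1 count was worth 0.0321 to 0.0475 CPM, the count scaled to library size, before TMM scaling. All 10 genes passed the filter on low counts, which left 18314 genes, but E2F7 passed it through KG1A alone. CD34 lay at 1190 CPM in KG1A dG against 931 to 932 CPM in KG1A PBS, and at or below 0.776 CPM in U937. This shift of CD34 stands beside every dG result in KG1A, and its part in them was not tested. Of the 6 monoblast markers examined in U937, MPO did not exceed 0.199 CPM and the others moved with dG. LYZ lay at 219 to 225 CPM in U937 dG against 22.7 to 24.7 CPM in U937 PBS, CTSG at 1090 to 1150 CPM in dG against 499 CPM in PBS, and AZU1 at 331 to 335 CPM in dG against 146 to 158 CPM in PBS. PRTN3 lay at 93.8 to 99.9 CPM in dG against 191 to 203 CPM in PBS, and ELANE at 112 to 113 CPM in dG against 101 to 104 CPM in PBS. These shifts stand beside every dG result in U937, and their part in it was not tested. Among markers of lymphoid, erythroid, fibroblast and epithelial cells, MS4A1, HBA1, HBB and EPCAM had 0 counts in all libraries. CD3E lay at 21.0 to 21.8 CPM in KG1A dG against 10.5 to 11 CPM in KG1A PBS, and COL1A1 lay in U937 at 4.22 to 4.57 CPM in dG against 1.26 to 1.36 CPM in PBS. The part of these markers in the results was not tested. The share of counts from mitochondrial genes was 8.01% and 8.30% in KG1A dG against 9.12% and 9.19% in KG1A PBS, and 8.18% and 7.93% in U937 dG against 9.76% and 9.83% in U937 PBS. It was lower in dG in both lines, beside every dG result given here, and its part in them was not tested. The libraries are bulk, so fewer cells of a kind, such as cells in one cycle phase, and less RNA per cell cannot be told apart.

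In GRCh38 and as the count table gives them, the activator genes lie at chr20:33675683-33686404 (E2F1, minus strand), chr1:23506430-23531220 (E2F2, minus) and chr6:20401906-20493715 (E2F3, plus). Of the repressor genes, 4 lie at chr16:67192169-67198918 (E2F4, plus), chr2:11444375-11466177 (E2F6, minus), chr12:77021247-77065580 (E2F7, minus) and chr11:19224063-19241620 (E2F8, minus). The pocket protein genes lie at chr13:48303751-48481986 (RB1, plus) and chr20:36996349-37095995 (RBL1, minus). Values are summed over the exons of a gene and do not separate its isoforms.

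The promoters of members are shown first, as a description of their sequence. The part of E2F motifs in the responses to dG was not tested. RefSeq promoter entries (build GRCh38.p14) were found for 8 of the 10 members, with none for E2F5 and E2F8. For 7 of them the entry lay within 1000 bases of the start of the gene in the count table. The entry for RB1 lies 172699 bases inside the gene and was not used. Each window of 250 bases before to 50 after the start was searched on both strands for 4 E2F motifs: TTTGGCGC, TTTCGCG, TTTCCCGC and TTTGCCGC. Matches were present in E2F1, E2F2, E2F3 and RBL1 and in no window of E2F4, E2F6 or E2F7. Of all 35116 promoters in the table, 4.04% held at least 1 match and 0.231% held 2 or more. The 100 bases just before the start follow, 5′ to 3′ on the strand of the gene, with matched motif letters in capitals.
E2F1 (chr20:33686386-33686485, minus strand): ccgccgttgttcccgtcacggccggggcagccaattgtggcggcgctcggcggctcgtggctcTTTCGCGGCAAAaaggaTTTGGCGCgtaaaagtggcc
E2F2 (chr1:23531234-23531333, minus strand): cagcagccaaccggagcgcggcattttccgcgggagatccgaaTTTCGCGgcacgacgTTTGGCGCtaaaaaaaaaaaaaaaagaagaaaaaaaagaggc
E2F3 (chr6:20401779-20401878, plus strand): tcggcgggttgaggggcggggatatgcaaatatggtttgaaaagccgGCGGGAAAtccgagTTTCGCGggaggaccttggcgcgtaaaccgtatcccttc
RBL1 (chr20:37095998-37096097, minus strand): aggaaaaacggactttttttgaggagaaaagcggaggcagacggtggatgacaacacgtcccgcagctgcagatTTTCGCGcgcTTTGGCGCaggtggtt
E2F7 (chr12:77065570-77065669, minus strand): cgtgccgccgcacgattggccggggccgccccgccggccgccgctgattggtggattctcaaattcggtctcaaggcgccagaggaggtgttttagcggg

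In E2F1, E2F2 and RBL1 a TTTCGCG match stood before a TTTGGCGC match, starting 37 and 20 bases before the start in E2F1, 57 and 42 bases in E2F2, and 26 and 16 bases in RBL1. In E2F1 a reverse match to TTTGCCGC overlapped the TTTCGCG match. In E2F3, TTTCCCGC was matched on the reverse strand, as GCGGGAAA. A second RefSeq start of E2F3, 1708 bases into the gene, had no match. E2F7 is shown because it had the largest rise in KG1A while its window held none of these motifs, and this says nothing about E2F binding there.

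Per exon length, the E2F genes were expressed in a different order in the 2 lines. Levels between genes are given in the authors' RPKM, read counts scaled by exon length and by library size. RB1 was the highest of the 10 genes in every group, at 43.8 RPKM in KG1A dG and 34.7 RPKM in KG1A PBS, and at 82.6 RPKM in U937 dG and 71.2 RPKM in U937 PBS. In KG1A PBS the leading E2F genes were E2F4 (22.1 ± 0.857 RPKM, SD, n = 2) and E2F3 (18.0 ± 0.348 RPKM). In U937 PBS E2F8 led them at 22.5 ± 0.0997 RPKM, followed by E2F4 at 12.8 ± 0.247 RPKM. E2F5 was near the bottom in U937, at 0.738 RPKM in dG and 1.90 RPKM in PBS. E2F7 and E2F6, neighbours in the order of KG1A PBS, overlapped between libraries (5.09 and 4.96 RPKM). In KG1A dG, overlapping neighbours were E2F3 with E2F4, E2F8 with RBL1, and RBL1 with E2F1, and in U937 dG they were E2F2 with RBL1.

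E2F7 was the member that separated the lines most. It had 0 and 0 counts in U937 dG and 1 and 0 counts in U937 PBS. In KG1A it had 1876 and 1592 counts in dG and 716 and 939 counts in PBS. A total of 3 counts over the U937 dG libraries, which a count of 0 allows, equals 0.0685 CPM. The level in KG1A dG was therefore at least 957-fold higher than in U937 dG. In PBS, 1 count in U937 stood against 1655 in KG1A, a ratio of KG1A to U937 of 1800 with an exact 95% interval of 323 to 71200 that covers counting error only. No dG effect can be given for E2F7 in U937, where both groups were at or under that limit. E2F7 is left out of the count between the lines, because it passed the filter through KG1A alone. Between the lines in PBS the 9 other members were called, 5 higher and 4 lower in U937, where 82.3% of all genes tested were called, 41.4% higher and 40.8% lower. E2F8 was 1.33 ± 0.05 and RB1 1.09 ± 0.03 higher on the log2 scale in U937 (adjusted p = 3.65e-24 and 3.9e-26, edgeR). E2F5 was lower in U937, with a log2 fold change of -1.80 ± 0.07 (adjusted p = 3.15e-23). E2F3 (-0.88 ± 0.05, adjusted p = 2.07e-19) and E2F4 (-0.74 ± 0.05, adjusted p = 1.06e-15) were also lower in U937, and E2F2 was higher (0.37 ± 0.06, adjusted p = 4.21e-07). The calls for E2F1 (-0.15 ± 0.06, adjusted p = 0.0231), E2F6 (0.23 ± 0.08, adjusted p = 0.00695) and RBL1 (0.18 ± 0.05, adjusted p = 0.000539) were the smallest. Of these 9 members, 8 were called with DESeq2 and 7 with each setting of limma on RPKM. Among libraries left out in turn, E2F6 moved to 0.09 (adjusted p = 0.355) and RBL1 to 0.10 (adjusted p = 0.1) without KG1A PBS replicate 2, E2F6 moved to 0.34 without KG1A PBS replicate 1 (adjusted p = 0.000542), and E2F1 lost its call without any PBS library or either U937 dG library (adjusted p = 0.0507 to 0.129).

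**Figure D1:**
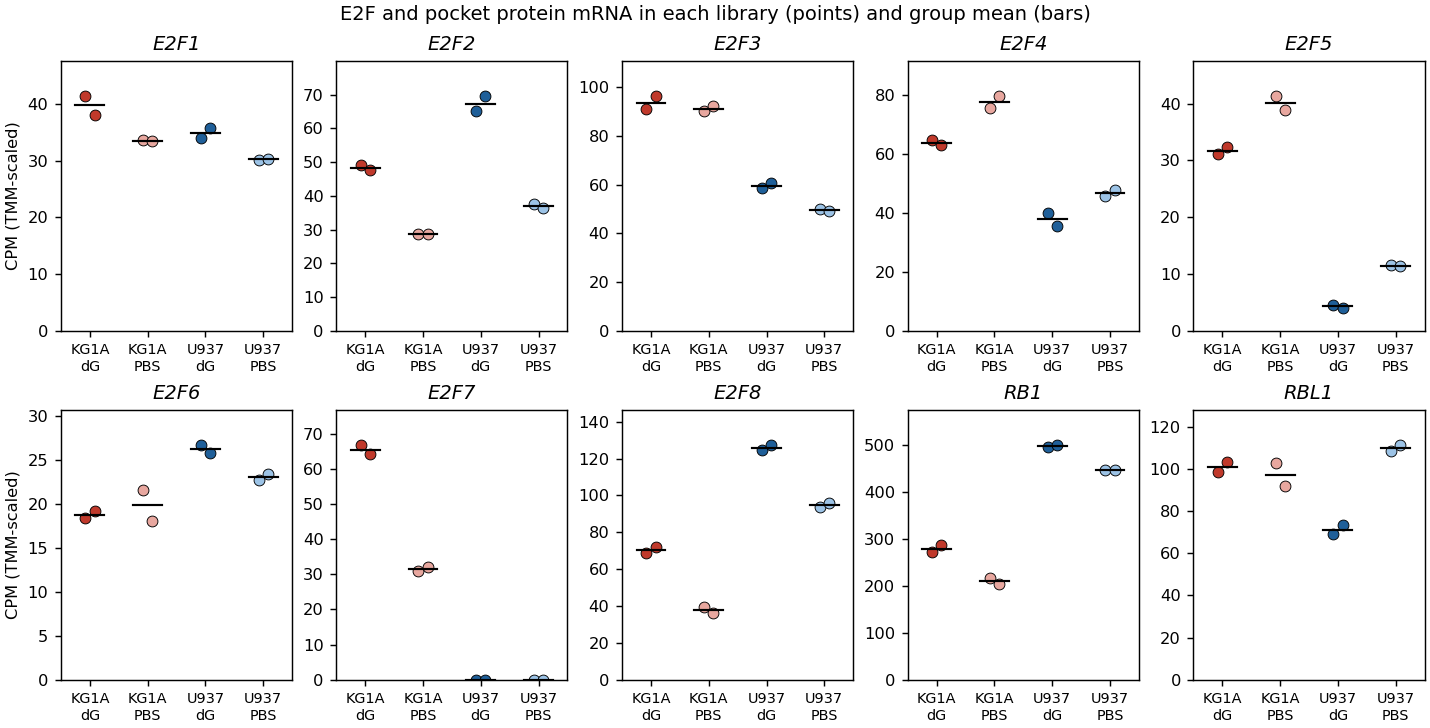
CPM (vertical axis, linear, from 0, TMM-scaled) of each member in KG1A dG, KG1A PBS, U937 dG and U937 PBS. Points are the 2 libraries of a group and bars their mean. E2F2 and E2F8 lie higher in dG than in PBS in both lines, E2F4 and E2F5 lie lower, and E2F7 is at or near 0 in U937.

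The comparison of dG with PBS asked how each line changed these regulators. In KG1A 7 of the 10 members were called, 5 higher and 2 lower in dG, where 49.1% of all genes tested were called, 29.6% higher and 19.6% lower. In U937 all 9 members with a value were called, 6 higher and 3 lower, where 64.0% of genes were called, 32.4% higher and 31.5% lower. E2F1, E2F2, E2F8 and RB1 rose in both lines, as did 15.4% of all genes tested, and E2F4 and E2F5 fell in both, as did 13.1%. With log2(RPKM + 1) the split over all genes was even in KG1A, at 4085 higher and 4202 lower, against 5413 and 3581 in the counts. With so few genes these counts are a description, set beside the shares over all genes. Adjusted p-values of genes come from edgeR's quasi-likelihood test, with Benjamini-Hochberg adjustment over the 18314 genes. The value after ± is the standard error for log2 fold changes and the SD for levels.

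Among the activators, E2F2 showed the largest response. In KG1A it stood at 49.2 and 47.5 CPM in dG, against 28.5 and 28.6 CPM in PBS. In U937 it stood at 65.2 and 69.5 CPM in dG, against 37.5 and 36.5 CPM in PBS. The dG libraries lay above the PBS libraries in both lines without overlap, with log2 fold changes of 0.76 ± 0.06 in KG1A (adjusted p = 6.78e-14) and 0.86 ± 0.05 in U937 (adjusted p = 8.61e-17), or 1.69-fold and 1.82-fold. E2F1, the activator best known for driving entry into S phase, moved less. It had 41.4 and 38.2 CPM in KG1A dG against 33.7 and 33.5 CPM in KG1A PBS, and 34.0 and 35.8 CPM in U937 dG against 30.2 and 30.4 CPM in U937 PBS. Its groups did not overlap in either line, and it rose by 0.25 ± 0.06 in KG1A (adjusted p = 0.000569) and by 0.20 ± 0.06 in U937 (adjusted p = 0.00465). Scaled by library size alone, the U937 value was 0.13 and missed the threshold (adjusted p = 0.0727). On the log2(RPKM + 1) scale the KG1A value was 0.16 (limma, adjusted p = 0.0213).

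E2F3, an activator with 2 promoters, differed between the lines. It had 91.0 and 96.3 CPM in KG1A dG against 90.1 and 92.3 CPM in KG1A PBS, and these groups overlapped. In U937 it had 58.4 and 60.6 CPM in dG against 49.8 and 49.1 CPM in PBS, with no overlap. The log2 fold change was 0.04 ± 0.04 in KG1A, which did not pass the test (adjusted p = 0.527, 95% interval -0.05 to 0.12), and 0.27 ± 0.05 in U937 (adjusted p = 1.44e-05). All 3 activators were thus called higher in U937, and 2 of the 3 in KG1A, beside 32.4% and 29.6% of all genes tested. The U937 call of E2F1 was lost when libraries were scaled by size alone.

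The repressors split. E2F4, the most abundant E2F gene of KG1A in PBS and a partner of all pocket proteins, had 64.8 and 63.2 CPM in KG1A dG against 75.8 and 79.7 CPM in KG1A PBS. In U937 it had 40.2 and 35.5 CPM in dG against 45.8 and 47.7 CPM in PBS. Both pairs of groups were separate, and E2F4 fell in both lines, with log2 fold changes of -0.28 ± 0.05 in KG1A (adjusted p = 9.67e-06) and -0.30 ± 0.06 in U937 (adjusted p = 2.59e-05). Without U937 dG replicate 2, the lowest library, the U937 value was -0.15 and was not called (adjusted p = 0.0621).

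E2F5, the other pocket-dependent repressor, had the largest fall of any member. It stood at 31.1 and 32.3 CPM in KG1A dG against 41.3 and 39.0 CPM in KG1A PBS. In U937 it stood at 4.44 and 4.08 CPM in dG, from 103 and 84 counts, against 11.6 and 11.3 CPM in PBS, from 369 and 284 counts. The log2 fold changes were -0.34 ± 0.06 in KG1A (adjusted p = 1.43e-05) and -1.42 ± 0.11 in U937 (adjusted p = 1.35e-13). The U937 level was 2.68-fold lower in dG. On the log2(RPKM + 1) scale, which understates low genes, the U937 value was -0.74 (limma, adjusted p = 2.53e-05). E2F5 (chromosome 8, 85177225 to 85217158 in GRCh38, plus strand) shares 969 exon bases, 16.3% of its GENCODE 29 exon length, with C8orf59 on the opposite strand. C8orf59 also fell, to 66.0 CPM in KG1A dG against 94.3 CPM in KG1A PBS (-0.51 ± 0.05, adjusted p = 5.11e-12) and to 47.5 CPM in U937 dG against 58.9 CPM in U937 PBS (-0.31 ± 0.05, adjusted p = 1.84e-06). The strand setting of the counting is not given in the sources used here, so reads of the shared bases may be dropped or misplaced, and their part in the fall of E2F5 was not tested.

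E2F6, the Polycomb-linked repressor, changed least among the repressors that were expressed in both lines. It had 18.3 and 19.2 CPM in KG1A dG against 21.6 and 18.1 CPM in KG1A PBS, which overlapped. It had 26.6 and 25.8 CPM in U937 dG against 22.7 and 23.4 CPM in U937 PBS, which did not. The KG1A value of -0.07 ± 0.08 did not pass the test (adjusted p = 0.488, 95% interval -0.23 to 0.09). E2F6 rose by 0.19 ± 0.07 in U937 (adjusted p = 0.0266), but this call ended when libraries were scaled by size alone (0.11, adjusted p = 0.186), and also without U937 PBS replicate 1 (adjusted p = 0.149) or 2 (adjusted p = 0.0619).

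The atypical repressors E2F7 and E2F8 rose in KG1A, and E2F8 rose in U937 as well. E2F7 had 66.7 and 64.3 CPM in KG1A dG against 31.0 and 32.1 CPM in KG1A PBS, a log2 fold change of 1.05 ± 0.06 (adjusted p = 3.38e-17) and the largest rise of any member. E2F8 had 68.7 and 72.2 CPM in KG1A dG against 39.6 and 36.2 CPM in KG1A PBS. In U937 E2F8 had 124.5 and 127.2 CPM in dG against 93.8 and 95.7 CPM in PBS. No dG library of either gene overlapped a PBS library of KG1A, and E2F8 was also separate in U937. E2F8 rose by 0.90 ± 0.05 in KG1A (adjusted p = 3.43e-17) and by 0.41 ± 0.04 in U937 (adjusted p = 1.47e-10), or 1.86-fold and 1.33-fold.

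The 2 pocket proteins among the members went different ways. RB1, the retinoblastoma tumour suppressor, had 270.9 and 286.0 CPM in KG1A dG against 217.3 and 203.7 CPM in KG1A PBS. In U937 it had 494.3 and 498.8 CPM in dG against 445.6 and 447.0 CPM in PBS. The groups were separate in both lines, and RB1 rose by 0.40 ± 0.04 in KG1A (adjusted p = 3.74e-12) and by 0.15 ± 0.03 in U937 (adjusted p = 0.000122). The U937 value depended on the scaling, at 0.24 with DESeq2's size factors (adjusted p = 8.37e-08) and 0.08 when scaled by library size only (adjusted p = 0.0304).

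RBL1, which encodes p107 and is itself an E2F target, had 98.5 and 103.5 CPM in KG1A dG against 102.7 and 92.0 CPM in KG1A PBS, with overlap. In U937 it had 69.0 and 73.6 CPM in dG against 108.8 and 111.3 CPM in PBS, with no overlap. It fell in U937 by 0.63 ± 0.05 on the log2 scale (adjusted p = 4.88e-14), a 1.54-fold lower level in dG, while the KG1A value of 0.06 ± 0.05 did not pass the test (adjusted p = 0.345, 95% interval -0.04 to 0.15). Like E2F1 and E2F2, RBL1 holds the TTTCGCG and TTTGGCGC pair shown above, and in U937 it fell where those 2 genes rose. Binding to these motifs was not measured, and their part in either change was not tested.

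**Figure D2:**
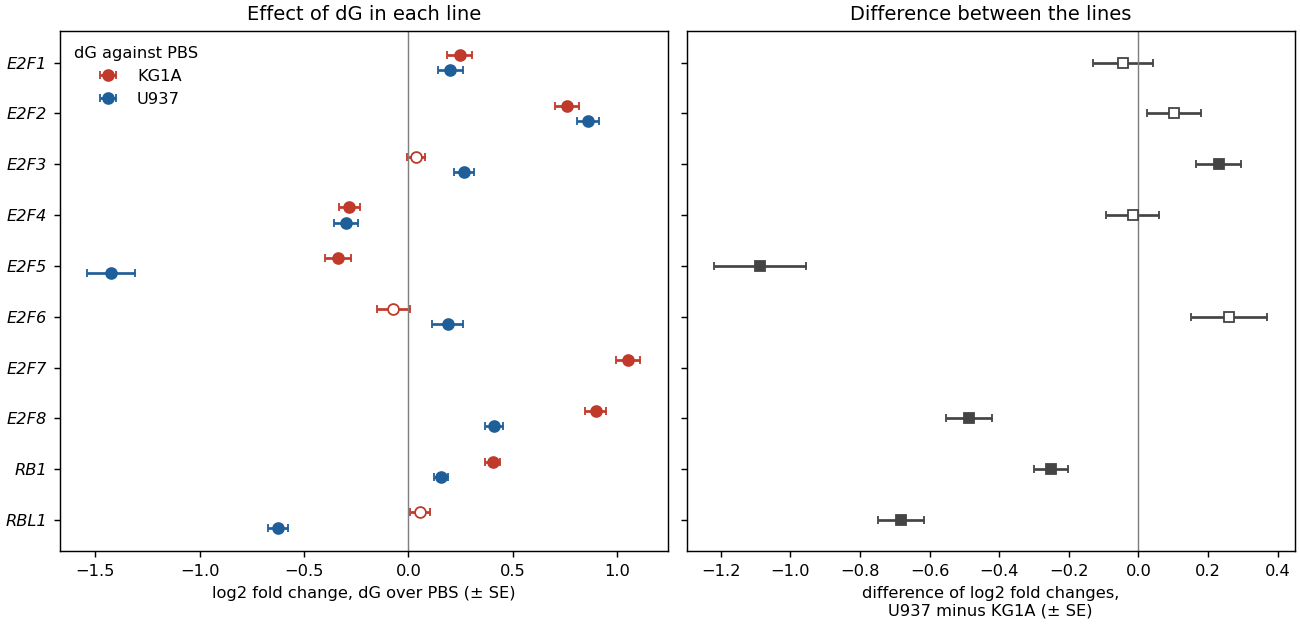
Left, log2 fold change of dG over PBS (horizontal axis, ± SE) of each member in KG1A and in U937. Right, the U937 value minus the KG1A value. Filled symbols passed an adjusted p of 0.05, open ones did not, and E2F7 has no U937 value. E2F5 and RBL1 stand farthest to the left in U937, and E2F7 and E2F8 farthest to the right in KG1A.

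The difference between the dG effects of the 2 lines was tested in the same model. It was called for 5 of the 9 members with a value, 1 higher and 4 lower in U937 than in KG1A, where 44.1% of genes were called, 17.6% higher and 26.4% lower. With DESeq2's size factors the split over all genes was 4021 higher and 3898 lower, against 3230 and 4841. E2F5 differed most, by -1.09 ± 0.13 (U937 minus KG1A, adjusted p = 9.68e-09), then RBL1 by -0.68 ± 0.07 (adjusted p = 7.85e-11) and E2F8 by -0.49 ± 0.07 (adjusted p = 1.26e-07). On the log2(RPKM + 1) scale these fell in size to -0.39 for E2F5 and -0.31 for E2F8 and passed the test (limma, adjusted p = 0.00438 and 0.0054). E2F3 was called higher in dG in U937 alone, with a difference of 0.23 ± 0.07 (adjusted p = 0.00415), or 0.38 without U937 dG replicate 1. RB1 rose less in U937, with a difference of -0.25 ± 0.05 (adjusted p = 4.75e-05). This RB1 call ended without U937 dG replicate 1 (-0.12, adjusted p = 0.106) or 2 (-0.13, adjusted p = 0.0813), with no filter (-0.12, adjusted p = 0.0605) and with each RPKM setting (adjusted p = 0.11 to 0.187).

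For E2F1 the difference was -0.04 (95% interval -0.22 to 0.13, adjusted p = 0.743) and for E2F4 -0.02 (95% interval -0.17 to 0.14, adjusted p = 0.933). E2F2 (0.10, adjusted p = 0.318) and E2F6 (0.26, adjusted p = 0.0502) did not pass either, but E2F2 passed without U937 dG replicate 1 (0.27, adjusted p = 0.0132) and E2F6 without either U937 dG library (0.36 and 0.41, adjusted p = 0.0209 and 0.00678), without KG1A PBS replicate 2 (0.39, adjusted p = 0.00624) or without KG1A dG replicate 2 (0.29, adjusted p = 0.0429). Both also passed with DESeq2's size factors (adjusted p = 0.0338 for E2F2 and 0.00608 for E2F6). The median of this difference over all genes was -0.10 and moved by 0.10 to 0.13 under DESeq2's size factors, no filter, RPKM or without either U937 dG library, and a difference of a member is to be read beside that shift.

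Summed over exon length, E2F mRNA was higher in dG. The 8 E2F genes together had 95.4 and 94.9 RPKM in KG1A dG against 85.3 and 85.2 RPKM in KG1A PBS, and 88.3 and 88.1 RPKM in U937 dG against 71.0 and 70.8 RPKM in U937 PBS. The ratio of the activator sum (E2F1 to E2F3) to the repressor sum (E2F4 to E2F8) was 0.785 and 0.768 in KG1A dG against 0.754 and 0.775 in KG1A PBS, and these overlapped. In U937 it was 0.758 and 0.813 in dG against 0.666 and 0.642 in PBS, with no overlap. An exact two-sided permutation test gave p = 0.667 in KG1A and p = 0.333 in U937. The smallest value that 2 against 2 libraries allow is 0.333, so this test cannot decide for or against a change in either line. No linear model of the ratio was fitted. With CPM in place of RPKM the KG1A means turned round, at 0.726 in dG against 0.740 in PBS.

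The makeup of the summed E2F mRNA shifted as well, in shares of the RPKM of all 8 E2F genes. E2F7 and E2F8 together made up 27.7% and 28.2% of E2F mRNA in KG1A dG against 17.2% and 16.6% in KG1A PBS. In U937, where E2F8 stands nearly alone for this class, they made up 35.2% and 35.6% in dG against 31.7% and 31.9% in PBS. E2F4 made up 18.2% in KG1A dG against 25.9% in KG1A PBS, and 12.3% in U937 dG against 18.1% in U937 PBS.

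**Figure D3:**
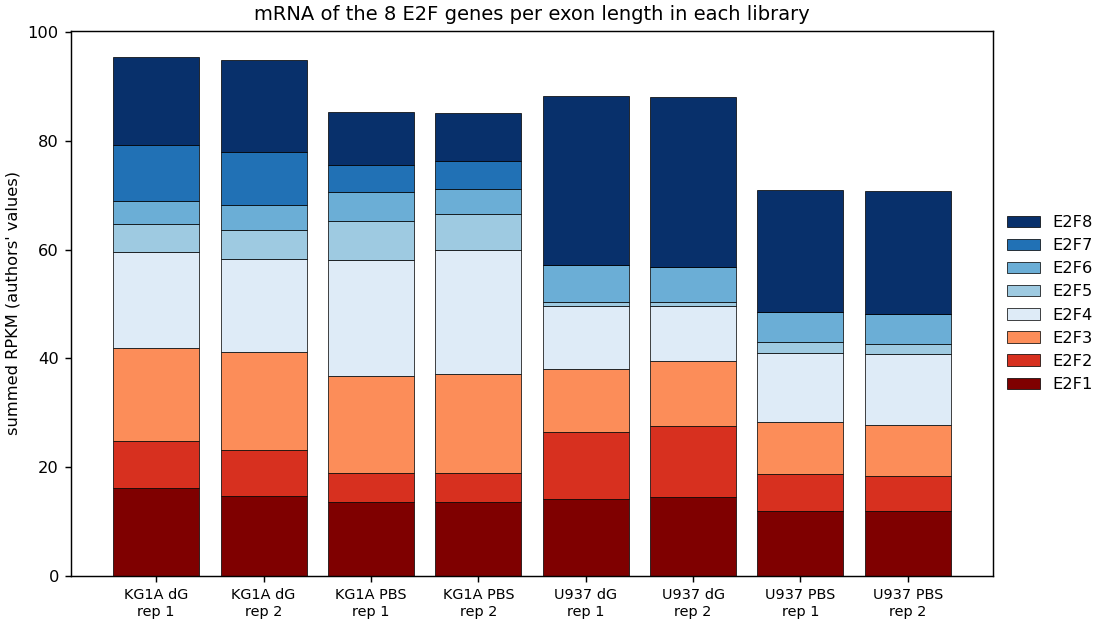
Stacked RPKM of the 8 E2F genes (vertical axis, linear, from 0) in each of the 8 libraries. Reds are the activators E2F1 to E2F3 and blues the repressors E2F4 to E2F8. The sum is 94.9 and 95.4 in KG1A dG against 85.2 and 85.3 in KG1A PBS, and the E2F4 segment is smaller in dG in both lines.

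The partners of the E2F proteins were read from a list of DP subunits with RBL2, the third pocket protein. In KG1A dG 2 of the 3 that passed the filter rose and 1 fell, and in U937 dG 1 rose and 2 fell, with medians of 0.31 in KG1A and -0.36 in U937, beside 0.04 and 0.00 over all genes. Of all genes tested, 29.6% were called higher and 19.6% lower in KG1A dG, and 32.4% and 31.5% in U937 dG. RBL2, known for holding E2F targets silent in resting cells, rose in both lines, by 0.31 ± 0.04 in KG1A (adjusted p = 5.34e-09) and by 0.29 ± 0.03 in U937 (adjusted p = 3.2e-09), with means of 155 CPM in KG1A dG against 125 CPM in KG1A PBS and 251 CPM in U937 dG against 206 CPM in U937 PBS. TFDP1, the main DP subunit, fell by 0.49 ± 0.03 on the log2 scale in U937 (adjusted p = 2.14e-16) and by 0.11 ± 0.03 in KG1A (adjusted p = 0.00537). TFDP2 rose by 0.31 ± 0.04 in KG1A (adjusted p = 4.77e-09) and changed by -0.36 ± 0.05 in U937 (adjusted p = 2.39e-08). The difference between the lines was called for TFDP1 (-0.38 ± 0.04, adjusted p = 4.1e-09) and TFDP2 (-0.67 ± 0.06, adjusted p = 7.99e-12) and not for RBL2 (-0.02 ± 0.05, adjusted p = 0.804). TFDP3 did not pass the filter on low counts.

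The MuvB core joins RBL1 or RBL2 in the repressive DREAM complex of resting cells, and joins MYBL2 and FOXM1 to switch on mitotic genes in dividing cells. Of 7 genes listed, 5 were higher in KG1A dG, at a median of 0.28, and 2 were higher and 2 lower in U937 dG, at a median of 0.04. Beside them, 29.6% of all genes tested were higher and 19.6% lower in KG1A dG, at a median of 0.04. For U937 dG these shares were 32.4% and 31.5%, at a median of 0.00. LIN54, its DNA-binding subunit, rose by 0.65 ± 0.05 in both lines (adjusted p = 1.05e-14 in KG1A and 1.12e-14 in U937). MYBL2, an E2F target that drives the activating form, rose by 0.28 ± 0.03 in KG1A (adjusted p = 5.37e-09) and fell in U937, to 196 CPM in dG against 296 CPM in PBS (-0.59 ± 0.03, adjusted p = 8.27e-18). FOXM1 and LIN9 rose in KG1A, by 0.41 ± 0.03 and 0.45 ± 0.06 (adjusted p = 2.21e-12 and 1.11e-08), but were not called in U937 (0.04 ± 0.04 and -0.05 ± 0.05, adjusted p = 0.327 and 0.441). LIN52 rose in U937 by 0.81 ± 0.07 (adjusted p = 4.94e-13) and was not called in KG1A (-0.11 ± 0.05, adjusted p = 0.088). RBBP4, a histone-binding subunit, rose by 0.08 ± 0.03 in KG1A (adjusted p = 0.0349) and fell in U937 by 0.08 ± 0.03 on the log2 scale (adjusted p = 0.0258). LIN37 was called in neither line (0.08 ± 0.24 and 0.48 ± 0.26, adjusted p = 0.844 and 0.102). The difference between the lines was called higher in U937 for LIN52 (0.92 ± 0.09, adjusted p = 3.36e-11) and lower for MYBL2, LIN9, FOXM1 and RBBP4, led by MYBL2 (-0.87 ± 0.05, adjusted p = 1.24e-17).

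Upstream of the pocket proteins, 6 of 7 inhibitors of the G1 kinases were higher in dG in each line. Among all genes tested, 29.6% were called higher in KG1A dG and 32.4% in U937 dG. CDKN2B, at 0 counts in KG1A dG and 1 in KG1A PBS, has no fold there. The median log2 fold change was 1.29 over the 6 others in KG1A and 1.03 over all 7 in U937, where the medians over all genes were 0.04 and 0.00. CDKN1A, the p21 inhibitor, had 3.62 CPM in KG1A dG against 0.922 CPM in KG1A PBS, and 22.8 CPM in U937 dG against 3.08 CPM in U937 PBS (1.98 ± 0.22 and 2.88 ± 0.12, adjusted p = 8.97e-10 and 2.9e-22). CDKN2D and CDKN2C, which act on CDK4 and CDK6, rose in both lines, CDKN2D by 1.12 ± 0.08 and 1.18 ± 0.08 (adjusted p = 2.01e-14 and 1.03e-15) and CDKN2C by 0.42 ± 0.04 and 0.29 ± 0.05 (adjusted p = 8.12e-12 and 1.35e-05). CDKN1C rose in U937 by 0.54 ± 0.12 (adjusted p = 0.000149) and in KG1A by 2.55 ± 0.62 on 25 counts in dG against 4 in PBS (adjusted p = 0.000759), and CDKN2B rose in U937 by 1.08 ± 0.20 (adjusted p = 1e-05). CDKN1B, the p27 inhibitor, rose by 0.26 ± 0.04 in KG1A (adjusted p = 4.93e-06) and by 1.03 ± 0.04 in U937 (adjusted p = 3.63e-24). CDKN2A, which encodes the p16 inhibitor of CDK4 and CDK6, rose by 1.45 ± 0.17 in KG1A (adjusted p = 4.29e-09) from a low level, at 4.24 CPM in dG against 1.54 CPM in PBS, and was not called in U937 (-0.03 ± 0.05, adjusted p = 0.63).

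Of 9 cyclins and kinases that act on pocket proteins, 6 were higher and 2 lower in KG1A dG, at a median of 0.41, and 3 were higher and 4 lower in U937 dG, at a median of -0.03. The shares over all genes tested were 29.6% higher and 19.6% lower in KG1A dG, and 32.4% and 31.5% in U937 dG. Medians over all genes were 0.04 and 0.00. CCNE2, a cyclin E that is an E2F target, rose in both lines (0.80 ± 0.04 and 0.88 ± 0.05, adjusted p = 1.64e-18 and 1.24e-17). The D-type cyclin CCND3 (0.53 ± 0.04 and 0.39 ± 0.04, adjusted p = 3.1e-13 and 7.19e-12) and the S-phase cyclin CCNA2 (0.28 ± 0.03 and 0.21 ± 0.03, adjusted p = 7.82e-09 and 6.21e-07) rose in both as well, and CDK2 was called in neither (0.01 ± 0.05 and -0.03 ± 0.05, adjusted p = 0.906 and 0.647). CCND1 rose in KG1A on 19 counts in dG against 6 in PBS (1.61 ± 0.62, adjusted p = 0.0292) and was not called in U937 (0.26 ± 0.35, adjusted p = 0.536). CDK6 fell with -0.14 ± 0.04 in KG1A (adjusted p = 0.00758) and -0.48 ± 0.05 in U937 (adjusted p = 4.9e-11), and CDK4 with -0.28 ± 0.04 in KG1A (adjusted p = 1.98e-06) and -0.51 ± 0.04 in U937 (adjusted p = 2.1e-13). CCNE1 and CCND2 rose in KG1A (0.41 ± 0.06 and 0.47 ± 0.03, adjusted p = 5.59e-07 and 1.9e-14) and fell in U937 (-0.49 ± 0.10 and -0.55 ± 0.05, adjusted p = 5.36e-05 and 4.4e-13), and the difference was called for both (-0.90 ± 0.12 and -1.03 ± 0.06, adjusted p = 4.39e-08 and 2.7e-17).

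Downstream, 45 textbook E2F target genes of G1/S, such as the MCM helicase and DNA polymerase subunits, differed between the 2 lines. In KG1A 30 were higher and 6 lower in dG, at a median of 0.17, and in U937 6 were higher and 36 lower, at a median of -0.49. Over all genes tested, 29.6% were called higher and 19.6% lower in KG1A, and 32.4% and 31.5% in U937, with medians of 0.04 and 0.00. The list was chosen with earlier results of these data known and is no independent evidence of its direction. The difference between the lines was called lower in U937 for 42 of the 45 and higher for 1, beside 26.4% and 17.6% of all genes. Its median over the list was -0.63, against -0.10 over all genes. In all, 23 of the 45 were higher in KG1A and lower in U937, as were 4.93% of all genes tested. The KG1A calls depended on the scaling, with 24 higher and 12 lower when scaled by library size only. Without U937 dG replicate 1, and also without U937 dG replicate 2, they were 23 higher and 12 lower, and 13 were then higher in KG1A and lower in U937.

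POLA1, the catalytic subunit of the priming polymerase, stood at 46.2 CPM in U937 dG against 197 CPM in U937 PBS (-2.09 ± 0.04, adjusted p = 1e-30). GINS2, a helicase subunit, fell in U937 with -1.31 ± 0.07 (adjusted p = 1.8e-19), and the most negative difference between the lines was that of POLA1 (-1.98 ± 0.06, adjusted p = 8.77e-25). The 1 gene with a higher difference in U937 was POLA2, the regulatory partner of POLA1 (0.28 ± 0.06, adjusted p = 0.000304). Exceptions that rose in U937 were led by CCNE2 and RRM2 (0.46 ± 0.03, adjusted p = 3.95e-16). In KG1A the largest rises of the list were those of POLE (0.80 ± 0.04, adjusted p = 9.43e-20) and CCNE2, and the largest falls those of MCM6 and MCM5 (-0.33 ± 0.03 and -0.28 ± 0.04, adjusted p = 3.5e-11 and 9.24e-08). In U937 dG the mRNAs of all 3 activators were called higher and 36 of these 45 target mRNAs lower, beside 32.4% and 31.5% of all genes tested. With DESeq2 31 of the 45 were lower, and with library size alone E2F1 was not called. A link between the activators and these targets was not tested.

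The G2/M genes that the MuvB complex controls were mostly higher in dG in both lines. Of 24, 21 were higher and 1 lower in KG1A dG, at a median of 0.42, where 29.6% and 19.6% of all genes were called. In U937 dG 20 were higher and 3 lower, at a median of 0.28, where 32.4% and 31.5% were called. The difference between the lines was lower in U937 for 13 of the 24 and higher for 1, beside 26.4% and 17.6% of all genes, with a median of -0.16 against -0.10 over all genes. These counts were 6 and 5 without U937 dG replicate 1, 6 and 6 without U937 dG replicate 2, and 8 and 5 with DESeq2's size factors. CDC25C, a phosphatase that opens mitosis, and NUSAP1, a spindle protein, rose by 0.98 ± 0.10 and 0.71 ± 0.03 in KG1A (adjusted p = 5.64e-10 and 6.29e-20). CDK1, the mitotic kinase, and UBE2C, which helps to end mitosis, rose by 0.66 ± 0.03 and 0.65 ± 0.06 in U937 (adjusted p = 2.96e-19 and 4.48e-12). CDC20 fell in both lines (-0.25 ± 0.04 and -0.21 ± 0.04, adjusted p = 5.33e-06 and 3.44e-05), and PLK1 fell in U937 (-0.27 ± 0.04, adjusted p = 1.23e-07).

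**Figure D4:**
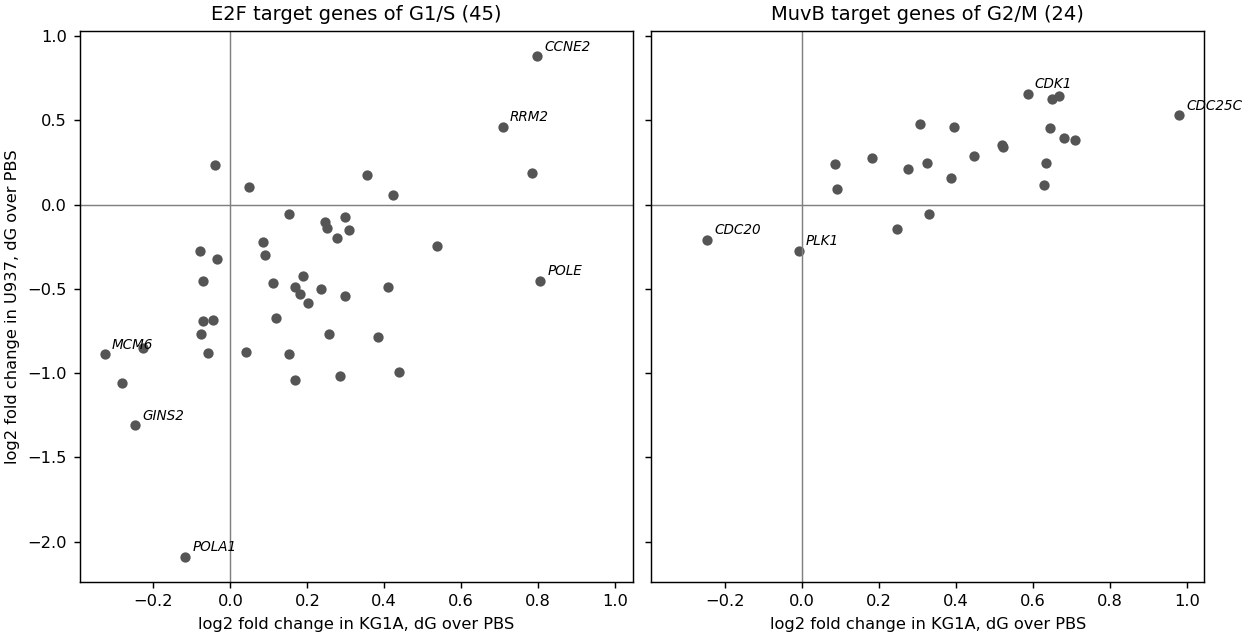
Log2 fold change of dG over PBS in KG1A (horizontal axis) and in U937 (vertical axis) for 45 E2F target genes of G1/S (left) and 24 MuvB target genes of G2/M (right). Each point is 1 gene. Most G1/S genes lie below the horizontal line, down to POLA1 at -2.09, and most G2/M genes lie above it.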

How the data were processed

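Raw read counts per gene and RPKM values were deposited by the authors for 8 libraries. The submitters' processing notes name HTSeq 0.11.2, TopHat2 and bcl2fastq 2.18.0.12, and give GRCh38 (hg38) as build. The annotation release, strand setting and handling of multi-mapping reads are not given in the sources used here, so values of overlapping genes are uncertain. The authors' RPKM equal counts per kilobase of exon and per library size scaled by TMM factors over all genes.

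Counts were tested with edgeR 4.0.16 (R 4.3.3, filterByExpr, TMM, quasi-likelihood F test, two-sided, 1 model of 4 group means with 4 residual degrees of freedom). The spread of a gene was moderated over all genes, which added a median of 31 prior degrees of freedom to p-values and intervals. The common biological coefficient of variation was 2.51%. Standard errors were derived from the log2 fold change and its F statistic. Adjusted p-values cover all 18314 genes, with a threshold of 0.05. CPM use the same TMM scaling. Scripts were tested on simulated data. Intervals are at 95%, and those on counts and the floor of 3 counts cover counting error only, since reads carry no molecular identifiers. The chi-square of replicate pairs, 1.80 to 2.21 per gene, exceeded counting noise, so none was taken as a repeat deposit. The listed genes were the 10 members, DP subunits with RBL2, MuvB, the E2F6 complex, G1 cyclins and kinases, their inhibitors, and G1/S and G2/M targets. From each list the 2 largest called changes per direction were named, or all genes of lists of 9 or fewer, plus the 2 genes most alike to each member. Members, lists and tests were chosen with earlier results of these data known. Genomic overlaps used GENCODE 29, whose coordinates equal those of the count table for 9 of the 10 members, RB1 excepted. Alternatives were other scalings, filters, DESeq2 1.42.0, limma 3.58.1 on RPKM, each line alone, a replicate block and each library left out. Some genes that the rule names are not reported here. No cause was tested.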

Additional observations from a re-analysis of the deposited data

Results flagged for a closer look

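The effects of dG on 5 members differed between the lines by a test of the difference itself (edgeR, adjusted over all genes). The U937 effect minus the KG1A effect was -1.09 for E2F5, -0.682 for RBL1, -0.487 for E2F8, -0.251 for RB1 and 0.23 for E2F3 on the log2 scale. For E2F5, E2F8 and RB1 the dG libraries moved the same way in both lines, and the size differed. For RBL1 and E2F3 a change was called in U937 alone. The RB1 difference lost its call without U937 dG replicate 1 (-0.119, edgeR adjusted p = 0.106) or 2 (-0.126, edgeR adjusted p = 0.0813), with no filter (-0.123, edgeR adjusted p = 0.0605) and with each RPKM setting (-0.117 to -0.122, limma adjusted p of 0.11 to 0.187). E2F5 rests on 103 and 84 counts in U937 dG against 369 and 284 in U937 PBS.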

How the results depend on the processing

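Of the log2 fold changes of members over all alternatives, 569 kept their side of the threshold, 27 lost a call and 15 gained one. No called value changed sign, but 37 values called in neither fit did, for E2F3, E2F6 and RBL1 in KG1A and the differences of E2F1 and E2F4. Those that decide a statement are given with the results. The counts of target genes were checked under the alternatives after the data were seen. G1/S genes lower in KG1A numbered 12 with library size alone or KG1A fitted alone, 11 with no filter and 10 with either filtered RPKM setting. G1/S genes higher in KG1A numbered 19 with unfiltered RPKM. Those higher in KG1A and lower in U937 numbered 12 with DESeq2 or no filter, 14 and 13 with RPKM at a pseudocount of 1 and 0.1, and 11 with unfiltered RPKM. Those whose difference was higher in U937 numbered 3 with DESeq2's size factors or no filter and 2 with filtered RPKM. G2/M genes whose difference was higher and lower in U937 numbered 5 and 8 with DESeq2's size factors, 5 and 7 with DESeq2, 5 and 6 with no filter, 6 and 6 with either filtered RPKM setting and 4 and 5 with unfiltered RPKM. Over all genes, the difference between lines was called higher for 5262 and 4865 with RPKM at a pseudocount of 1 and 0.1 and 4950 unfiltered, and lower for 3119 with DESeq2, against 3230 and 4841. The ratio of activators to repressors in CPM was 0.726 in KG1A dG, 0.740 in KG1A PBS and 0.833 in U937 dG.

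With each library left out in turn, genes higher and lower in dG ranged from 4521 to 5461 and 2953 to 4426 in KG1A, and from 5418 to 6055 and 4531 to 5880 in U937. Members called numbered 7 in KG1A, 8 to 9 in U937, 5 to 6 for the difference and 6 to 9 between lines in PBS, where 6 were left without KG1A PBS replicate 2. G1/S genes lower in KG1A ranged from 5 to 12, those with a higher difference from 1 to 3, G2/M genes with a higher difference from 1 to 6 and a lower one from 6 to 13, and G1/S genes higher in KG1A and lower in U937 from 13 to 22. A group left with 1 library was assumed to vary like the others.

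Samples with the same replicate number did not deviate together (correlation -0.0501 in KG1A and 0.00799 in U937), so the numbers were not taken as pairs. With the replicate number as a block, 5281 genes were higher and 3461 lower in KG1A, 5865 and 5665 in U937, and the members called were 7, 9 and 5 in KG1A, U937 and the difference. E2F7 had too few reads in U937 for a change to be detected, with 0 counts over the dG libraries and 1 over the PBS libraries.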

Other observations

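The complex through which E2F6 represses, a variant Polycomb complex, did not move one way. Of 14 genes 6 were higher and 4 lower in KG1A dG, where 29.6% and 19.6% of all genes tested were called, and 5 were higher and 7 lower in U937 dG, where 32.4% and 31.5% were called. RYBP, a Polycomb subunit, rose in both lines (0.30 ± 0.04 and 0.55 ± 0.04, edgeR adjusted p = 1.16e-07 and 7.04e-16). The largest falls were those of L3MBTL2, which binds modified histones, in KG1A (-0.69 ± 0.06, edgeR adjusted p = 6.99e-12) and of PCGF6, the subunit that defines the complex, in U937 (-0.998 ± 0.09, edgeR adjusted p = 1.59e-12), to 10.7 CPM in dG against 21.4 CPM in PBS. The deacetylase HDAC2 fell in both lines (-0.19 ± 0.03 in KG1A and -0.74 ± 0.03 in U937, edgeR adjusted p = 8.19e-06 and 1.04e-20). MGA, a scaffold of the complex, rose in both (0.25 ± 0.05 in KG1A and 0.34 ± 0.08 in U937, edgeR adjusted p = 5.38e-05 and 0.000258). RING1 fell in KG1A (-0.26 ± 0.07, edgeR adjusted p = 0.00186) and rose in U937 (0.27 ± 0.08, edgeR adjusted p = 0.0032), with a difference between the lines of 0.53 ± 0.105 (edgeR adjusted p = 6.5e-05). MAX, the partner of MYC and MGA, rose in both (0.22 ± 0.04 in KG1A and 0.45 ± 0.04 in U937, edgeR adjusted p = 3.4e-06 and 1.88e-11).

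The search covered 9782 genes whose log2 CPM averaged 2 or more. The genes most like a member over the 8 libraries, by Pearson's r of log2 CPM, were KIFC1 and PTPN22 for E2F8 (0.998 and 0.997), NET1 and IL17RE for E2F2 (0.996 and 0.995), GLCCI1 and PHF13 for E2F1 (0.978 for both), and FRA10AC1 and SRPK1 for RBL1 (0.984 and 0.983). For E2F3 they were TLR6 and ZNF841, for E2F4 MED16 and MT-CO2, for E2F5 SMARCAD1 and MEN1, for E2F6 UHRF1BP1L and MATR3, for E2F7 GUCY1B3 and RAB15, and for RB1 WAS and RERE, with r between 0.969 and 1.00. The 8 libraries fall into 2 lines, so these values depend on the difference between the lines as well as on dG, and are a description only.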
